A study of Mus musculus with 15 samples.

Results

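Primary mouse chondrocytes treated with LY294002, an inhibitor of PI3K, were compared directly with chondrocytes treated with SB202190, an inhibitor of p38. The comparison used the 3 LY294002 arrays and the 3 SB202190 arrays, 6 of the 15 arrays of the series, and covered the 34341 of 45037 probe sets whose mean signal was at least 50 in either treatment. PI3K phosphorylates membrane lipids downstream of insulin and growth factor receptors and thereby activates Akt and mTOR, and Akt in turn holds the FOXO transcription factors in the cytoplasm. p38 is a MAP kinase that is activated by stress, cytokines and BMPs through the kinases MKK3 and MKK6, and it acts on kinases such as MK2 and on transcription factors of the ATF and MEF2 families. Both pathways are known for roles in the growth plate, where chondrocytes that make type II collagen and aggrecan mature into hypertrophic cells that mineralize their matrix.

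Cells came from hind limb cartilage of CD1 mouse embryos at day 15.5, grew as a monolayer, and received LY294002, SB202190 or the vehicle DMSO, with total RNA measured on Affymetrix MOE 430 2.0 arrays. The other arrays of the series, treated with UO126 or Trichostatin A, entered only the estimate of the spread and the choice of each gene's brightest probe set. The labels give 24 hours of treatment and the series text gives 2 hours. LY294002 was used at 10 µM, and the dose of SB202190 is not given in the sources used here, so the doses cannot be matched. The sample labels shorten SB202190 to SB90, and the series text groups it with the MEK/ERK inhibitors. LY294002 is also known to inhibit mTOR and casein kinase 2, and both compounds act on further kinases, so each group stands for a compound and not for the loss of a single kinase.

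The cells carried high chondrocyte signals in both treatments. Type II collagen, Col2a1, measured 14.42, 14.44 and 14.43 on the LY294002 arrays and 14.33, 14.39 and 14.36 on the SB202190 arrays, all on the log2 scale. These values lie at the top of the scale, since the highest probe set of these 6 arrays reached 14.3 to 14.4. Of the 29 genes in the list of cartilage matrix genes and SOX factors, 28 passed the signal filter. Array medians lay between 6.90 and 7.0 over the whole series.

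LY294002 and SB202190 left different transcript profiles. At an adjusted p under 0.05 in limma, 1051 probe sets were higher and 528 were lower in LY294002 than in SB202190, which is 3.06% and 1.54%, or 4.60% in all, of the probe sets tested. With the replicate number as a block, 2233 probe sets were higher and 1079 lower, and these held all 1051 and all 528. Most differences were small: 604 of the higher and 270 of the lower probe sets differed at least 1.4-fold, and 45 and 27 differed at least 2-fold. Over all probe sets the median difference was 0.00 and the median standard error 0.10 on the log2 scale. Counting each gene by its brightest probe set, 604 of 15856 genes were higher (3.81%) and 348 were lower (2.19%), 6.0% in all, and the median difference over all genes was 0.01. The counts depended on single arrays. Leaving out LY294002 replicate 1, SB202190 replicate 1 or SB202190 replicate 2 left 501, 527 or 547 probe sets higher. Leaving out LY294002 replicate 2 or 3, or SB202190 replicate 1, 2 or 3, left 297, 328, 300, 308 or 299 lower. Quantile normalization between arrays changed the split, with 1133 higher and 1010 lower, so that 52.9% of the calls were higher against 66.6% as deposited.

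Against DMSO, LY294002 had 2362 probe sets higher and 616 lower of 34562 tested (6.83% and 1.78%, 8.62% in all), and SB202190 had 425 higher and 244 lower of 34539 (1.23% and 0.706%, 1.94% in all). These comparisons share the 3 DMSO arrays, so their values are given side by side below and serve to place each inhibitor relative to the vehicle. By brightest probe set, 11.1% of 15907 genes were called between LY294002 and DMSO (8.85% higher and 2.21% lower) and 2.70% of 15905 genes between SB202190 and DMSO (1.70% higher and 1.01% lower).

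The genes with the largest differences included secreted signals and cartilage proteins on the side of LY294002. Cxcl14, a chemokine, measured 10.36, 9.95 and 10.24 on the LY294002 arrays, 7.49, 7.61 and 7.61 on the SB202190 arrays, and 9.41, 9.01 and 9.20 on the DMSO arrays. The 3 groups did not overlap, with LY294002 above and SB202190 below the vehicle. Cxcl14 was 2.61 ± 0.12 (SE, n = 3 each) higher on the log2 scale in LY294002 than in SB202190, or 6.11-fold (limma adjusted p = 5.11e-09). Its second probe set gave 1.62 (adjusted p = 1.51e-08).

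Wif1, a secreted Wnt inhibitor made by chondrocytes, measured 8.35, 8.32 and 8.23 with LY294002, 6.59, 6.48 and 6.59 with SB202190, and 8.43, 7.97 and 8.08 with DMSO. Here the LY294002 and DMSO arrays overlapped and the SB202190 arrays stood alone below them. The difference between LY294002 and SB202190 was 1.75 ± 0.15, or 3.36-fold (adjusted p = 7.66e-06). C1qtnf3, a secreted C1q-like protein of cartilage, showed the same order, at 10.69, 10.90 and 10.76 with LY294002, 9.09, 9.50 and 9.40 with SB202190, and 10.83, 10.66 and 10.74 with DMSO (difference 1.45 ± 0.13, adjusted p = 1.29e-05). Tnfsf11, which encodes RANKL, the ligand that drives osteoclast formation, measured 8.08, 7.42 and 7.72 with LY294002 and 6.71, 5.87 and 6.18 with SB202190, against 7.74, 7.05 and 7.65 with DMSO (1.49 ± 0.23, adjusted p = 0.000977).

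For a second group of genes the LY294002 arrays stood above DMSO as well. Angptl7, an angiopoietin-like secreted protein, measured 11.45, 11.18 and 11.32 with LY294002 and 9.88, 9.82 and 9.95 with SB202190, against 10.25, 10.15 and 10.56 with DMSO. LY294002 stood above both other groups, by 1.44 ± 0.11 over SB202190 (adjusted p = 2.96e-06) and by 1.0 over DMSO (adjusted p = 9.78e-05). Col8a2, a short-chain collagen, was 1.29 ± 0.21 higher in LY294002 than in SB202190 (adjusted p = 0.00172) and 0.83 higher than in DMSO (adjusted p = 0.0224). The call against DMSO was lost without LY294002 replicate 1 or 2 (0.123 and 0.0636), without DMSO replicate 2 or 3 (0.0529 and 0.118) and in a fit of these 6 arrays alone (0.111). Ppp1r3c, which targets protein phosphatase 1 to glycogen, measured 9.73, 9.14 and 9.40 with LY294002, 7.57, 7.86 and 8.16 with SB202190, and 9.07, 8.70 and 8.52 with DMSO (1.56 ± 0.19, adjusted p = 0.000215). Ldlrad4, an inhibitor of TGF-beta signaling, was 1.31 ± 0.12 higher than in SB202190 (adjusted p = 9.19e-06), with no call against DMSO (0.37, adjusted p = 0.0551).

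Gnas, which encodes the stimulatory G protein alpha subunit and several overlapping imprinted transcripts, gave 9.15, 9.31 and 9.56 with LY294002 and 7.78, 7.85 and 8.38 with SB202190 on its most changed probe set (1.34 ± 0.19, adjusted p = 0.00066). LY294002 lay above both other groups without overlap. The mean over all Gnas probe sets differed by 0.31 (adjusted p = 0.00693), so the difference was larger on this probe set than over the gene.

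Il6, the inflammatory cytokine interleukin 6, measured 8.06, 7.31 and 6.18 with LY294002 and 6.10, 5.05 and 4.79 with SB202190, against 6.49, 5.94 and 6.29 with DMSO. The LY294002 and SB202190 arrays did not overlap but came close, and their spread was wide. The SB202190 mean of 5.31 lay under the filter of 5.64 on the log2 scale, so Il6 was tested through its LY294002 mean of 7.19. The size of its difference therefore rests in part on SB202190 signals under the filter. The difference of 1.87 ± 0.39 passed the threshold (adjusted p = 0.00943) and no longer did so without LY294002 replicate 1, SB202190 replicate 2 or SB202190 replicate 3 (adjusted p = 0.0518, 0.0528 and 0.0562).

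On the other side, Gpnmb had the largest difference of all probe sets tested. Gpnmb, a transmembrane glycoprotein of lysosomes and of osteoclasts, macrophages and pigment cells, measured 8.23, 8.16 and 7.96 with LY294002, 10.71, 10.88 and 10.98 with SB202190, and 9.02, 8.95 and 9.12 with DMSO. The 3 groups were fully separate, LY294002 lowest and SB202190 highest. Gpnmb was lower in LY294002 than in SB202190 by a log2 difference of -2.74 ± 0.09, or 6.68-fold (adjusted p = 4.26e-11). It was lower in LY294002 than in DMSO (-0.92, adjusted p = 3.84e-05) and higher in SB202190 than in DMSO (1.82, adjusted p = 2.59e-08).

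For several genes the LY294002 arrays lay below both other groups. Ednrb, the endothelin receptor B, measured 7.12, 7.21 and 7.29 with LY294002, 8.73, 8.57 and 8.69 with SB202190, and 8.98, 8.60 and 8.79 with DMSO (LY294002 minus SB202190 -1.46 ± 0.10, adjusted p = 1.64e-06). Krt18, a keratin of simple epithelia, measured 7.38, 7.35 and 7.30 with LY294002, 8.60, 8.60 and 8.57 with SB202190, and 8.98, 8.67 and 8.77 with DMSO (-1.25 ± 0.10, adjusted p = 3.61e-06). Tuba4a, an alpha tubulin, differed by -1.30 ± 0.13 and Sncg, gamma synuclein, by -1.23 ± 0.19 (adjusted p = 2.17e-05 and 0.000996). Of these 4 genes, none was called between SB202190 and DMSO.

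For Map2k6 and Car3 the SB202190 arrays lay above both other groups. Map2k6, which encodes MKK6, the kinase directly upstream of p38, measured 8.33, 8.11 and 7.84 with LY294002, 9.42, 9.34 and 9.28 with SB202190, and 8.35, 8.03 and 8.0 with DMSO. The LY294002 and DMSO arrays overlapped, and all SB202190 arrays lay above them. Map2k6 was 2.39-fold lower in LY294002 than in SB202190 (-1.26 ± 0.13, adjusted p = 3.84e-05), and SB202190 exceeded DMSO by 1.22 (adjusted p = 0.000105). Car3, a carbonic anhydrase of muscle and fat, measured 7.24, 7.16 and 6.90 with LY294002 and 8.72, 8.39 and 8.45 with SB202190, against 7.31, 7.32 and 6.73 with DMSO (-1.41 ± 0.25, adjusted p = 0.0028). Esm1, an endothelial proteoglycan, measured 5.15, 4.88 and 4.89 with LY294002, all under the filter of 5.64, and 7.17, 5.80 and 7.02 with SB202190 (-1.69 ± 0.24, adjusted p = 0.000562). Hpgd, which breaks down prostaglandins, was lower in LY294002 than in SB202190 (-1.22 ± 0.18, adjusted p = 0.000802), and both were lower than DMSO (-2.06 and -0.84). The call of Hpgd in SB202190 against DMSO was lost without SB202190 replicate 1 or 2 (adjusted p = 0.139 and 0.0761) or DMSO replicate 1 or 2 (0.0605 and 0.0751). Of the 24 called genes plotted by array, chosen for their size and lack of overlap, Il6 and Ibsp lost their call without single arrays. Leaving out replicate number 2 in all groups also cost Gnas, Col8a2, Car3, Sncg and Hpgd the call (adjusted p = 0.0771, 0.102, 0.0971, 0.0654 and 0.087). Tnfsf11 lost it without replicate number 3 (0.0521).

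**Figure D1:**
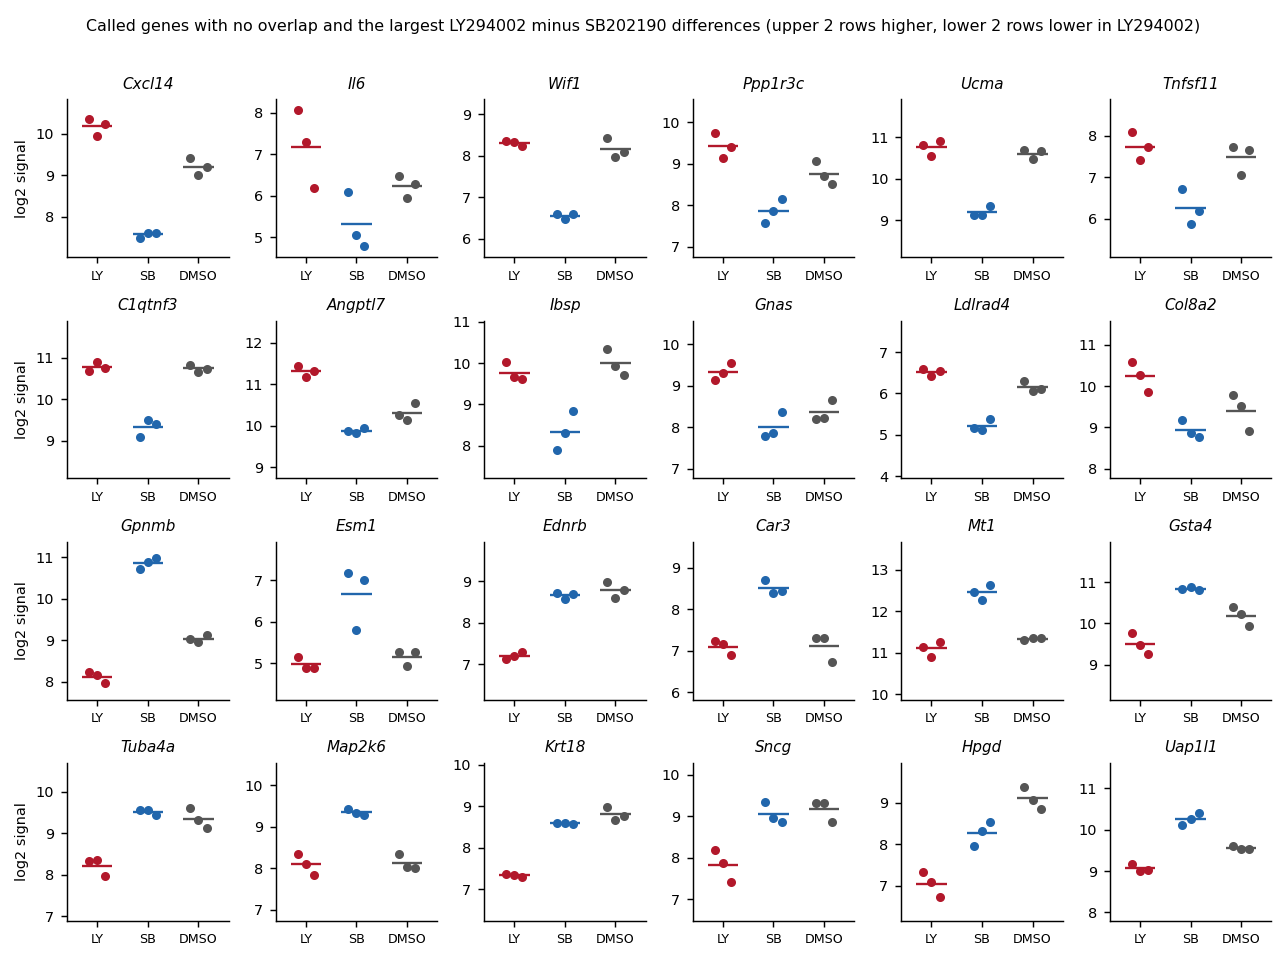
Log2 signal on each array for the 12 largest positive (upper 2 rows) and 12 largest negative (lower 2 rows) LY294002 minus SB202190 differences among called genes whose arrays of these groups did not overlap. Points are arrays and bars are group means (n = 3), for LY294002, SB202190 and DMSO. The separation of LY294002 and SB202190 follows from that choice, while DMSO lies with LY294002 for Wif1 and Map2k6, with SB202190 for Ednrb and Tuba4a, and between them for Cxcl14 and Gpnmb.

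The targeted kinases were compared at the level of their transcripts. Of the PI3K catalytic subunits Pik3ca, Pik3cb and Pik3cd, of Mtor, Akt1 and Akt2, of the p38 kinases Mapk14, Mapk11, Mapk12 and Mapk13, and of the p38 substrates Mapkapk2 and Rps6ka5, none was called. Mapk14, p38 alpha, measured 11.11, 10.83 and 10.70 with LY294002 and 10.79, 10.80 and 10.85 with SB202190, with a difference of 0.07 and a 95% interval from -0.20 to 0.33. Akt1 measured 12.12, 12.06 and 12.13 with LY294002 and 11.89, 11.84 and 12.19 with SB202190, with an interval from -0.06 to 0.31. Pik3ca differed by 0.29 (adjusted p = 0.146) and Rps6ka5, which encodes MSK1, by 0.33 (adjusted p = 0.122). With the replicate block both of these passed (adjusted p = 0.0352 and 0.0142).

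Beyond the kinases themselves, the PI3K, Akt and mTOR list had 4 of 39 members higher and 2 lower in LY294002 than in SB202190, with a median of 0.08, where 3.81% of all genes were higher and 2.19% lower. The same shares of all genes apply to the list counts of LY294002 against SB202190 below. The higher members were Rictor, the defining subunit of mTOR complex 2, at 0.69 ± 0.14 (adjusted p = 0.0063, and 0.168 when all its probe sets were averaged), the insulin receptor substrate Irs1 at 0.60 ± 0.10 (adjusted p = 0.00213), the receptor Igf1r at 0.55 (adjusted p = 0.0342), and the kinase Sgk3 at 0.38. Irs1 measured 12.34, 12.30 and 12.16 with LY294002 and 11.60, 11.67 and 11.75 with SB202190, against 11.79, 11.61 and 11.46 with DMSO. It was thus above the SB202190 and the DMSO arrays without overlap. The lower members were the regulatory subunit Pik3r3 (-0.44, adjusted p = 0.0154) and Pik3ip1, a negative regulator of PI3K, at -0.43. Igf1r lost its call without any 1 of the 6 arrays (adjusted p = 0.0535 to 0.157), and Pik3r3 without LY294002 replicate 3 or SB202190 replicate 2 (0.0718 and 0.0992). The higher members numbered 2 after quantile normalization and without LY294002 replicate 3, SB202190 replicate 1 or SB202190 replicate 2. The lower members numbered 1 without LY294002 replicate 1, LY294002 replicate 2 or SB202190 replicate 3, and 0 without LY294002 replicate 3 or SB202190 replicate 2.

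Of the 36 p38 pathway kinases and partners, Map2k6 alone was called, and the median was 0.08. With the replicate block 3 members were higher and 1 was lower, and without LY294002 replicate 3 there were 2 higher. Among 13 MAP kinase phosphatases, which switch MAP kinases off, 2 were lower in LY294002 and none was higher. Dusp14 measured 8.68, 8.50 and 8.51 with LY294002 and 9.13, 8.98 and 9.06 with SB202190 (-0.50 ± 0.10, adjusted p = 0.00664). Dusp3 differed by -0.36 (adjusted p = 0.0192) and lost its call without LY294002 replicate 2 or 3 or without SB202190 replicate 1, 2 or 3 (adjusted p = 0.102, 0.0648, 0.051, 0.0845 and 0.0645). Neither phosphatase was called against DMSO under either inhibitor. The lower phosphatases numbered 3 without LY294002 replicate 1, 1 without any other single array, and 4 with the block.

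FOXO factors are the transcription factors that Akt restrains, and their known targets were described next. In that list 5 of 26 tested members were higher and 1 was lower in LY294002 (3.81% and 2.19% of all genes were), with a median of 0.03. Klf2, a Krüppel-like transcription factor, measured 10.80, 10.76 and 10.24 with LY294002, 9.61, 9.71 and 9.21 with SB202190, and 9.24, 9.09 and 9.21 with DMSO (LY294002 minus SB202190 1.09 ± 0.16, adjusted p = 0.000697). Txnip, which inhibits thioredoxin and glucose uptake, measured 11.21, 11.15 and 11.20 with LY294002, 10.24, 10.30 and 10.56 with SB202190, and 9.98 to 10.15 with DMSO. The LY294002 arrays lay above all others, by 0.82 ± 0.10 over SB202190 (adjusted p = 0.000224) and by 1.14 over DMSO (adjusted p = 1.74e-05). Rictor and the cyclin Ccng2 (0.60, adjusted p = 0.0266) were also higher, Klf4 was 0.31 higher, and Pik3ip1 was the lower one. The other 20 members did not pass, among them the ubiquitin ligase Fbxo32 at 0.01, Bcl6 at 0.07 and Sesn3 at -0.31. Without any 1 array other than LY294002 replicate 3, 3 members were higher, without any other than SB202190 replicate 1 none was lower, and Ccng2 was not past the threshold without any array other than LY294002 replicate 3 (adjusted p = 0.052 to 0.127).

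The promoter of Txnip is shown because it is a FOXO target that separated LY294002 from both other groups and holds a FOXO motif. The window runs from 250 bases before to 50 after the transcription start, as RefSeq gives it on GRCm38.p6, at chr3:96557707-96558006 on the plus strand. Capitals mark the letters TGTTTAC, here on the opposite strand, with the first base at -121.
Txnip promoter: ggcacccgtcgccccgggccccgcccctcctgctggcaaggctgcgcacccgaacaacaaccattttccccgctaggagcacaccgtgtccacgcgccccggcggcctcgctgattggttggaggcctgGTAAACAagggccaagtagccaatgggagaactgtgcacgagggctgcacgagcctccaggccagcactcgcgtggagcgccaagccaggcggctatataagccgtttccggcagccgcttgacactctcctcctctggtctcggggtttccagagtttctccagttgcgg
TGTTTAC on either strand occurred in 6 of 30 promoter windows of the FOXO list and in 3.65% of all 32851 windows. A match is a description of the letters and does not show that a factor binds there.

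Cartilage matrix genes had the largest median difference and the most calls among the 35 lists. Of 28 tested members, 19 were higher and none was lower in LY294002 than in SB202190 (3.81% and 2.19% of all genes were). The median was 0.69, and 27 of 28 differences were positive. With the replicate block 23 members were higher. Against DMSO, 9 members were higher and 1 lower with LY294002 (median 0.35), where 11.1% of all genes were called, and 0 were higher and 3 lower with SB202190 (median -0.23), where 2.70% were called. The summed linear signal of the list was 135264 to 138321 on the LY294002 arrays, 89079 to 103204 on the SB202190 arrays and 103518 to 109993 on the DMSO arrays. In total RNA from a culture, more chondrocytes and more RNA per chondrocyte cannot be told apart.

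Among structural matrix genes, aggrecan, Acan, the main cartilage proteoglycan, measured 12.76, 12.72 and 12.87 with LY294002, 11.82, 12.04 and 12.13 with SB202190, and 12.26, 12.21 and 12.48 with DMSO. The 3 groups did not overlap, and LY294002 exceeded SB202190 by 0.78 ± 0.14 (adjusted p = 0.00348), while neither inhibitor differed from DMSO at the threshold. Matn1, matrilin 1, measured 12.33, 12.21 and 12.26 with LY294002 and 11.27, 11.35 and 11.62 with SB202190, against 11.59, 11.39 and 11.53 with DMSO (0.85 ± 0.15, adjusted p = 0.00255). Comp, the pentameric cartilage oligomeric matrix protein, was 0.99 ± 0.19 higher in LY294002 than in SB202190 (adjusted p = 0.00542) and 0.77 higher than in DMSO (adjusted p = 0.0185). Matn4 and Col9a2 followed the same pattern, with 0.95 and 0.94 over SB202190 (adjusted p = 0.00059 and 0.00216) and 0.67 and 0.62 over DMSO (0.00582 and 0.0231). Against DMSO, Comp lost its call without LY294002 replicate 1 or DMSO replicate 2 (0.0586 and 0.0916) and after quantile normalization (0.065). Col9a2 lost it without LY294002 replicate 2 or 3 or DMSO replicate 2 (0.065, 0.0648 and 0.0852) and after quantile normalization (0.111).

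Ucma, a secreted Gla protein of resting chondrocytes that binds calcium, differed in another way. It measured 10.82, 10.54 and 10.90 with LY294002, 9.13, 9.12 and 9.35 with SB202190, and 10.68, 10.48 and 10.66 with DMSO, so that only the SB202190 arrays stood apart among the 3 groups (1.55 ± 0.12, adjusted p = 3.6e-06). Prg4, lubricin, was lower than DMSO under both inhibitors, with 8.34, 8.34 and 8.25 for LY294002 and 7.52, 7.77 and 7.26 for SB202190 against 9.42, 9.30 and 9.29 for DMSO. The difference between the inhibitors was 0.79 ± 0.21 (adjusted p = 0.0439).

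Of the SOX factors that drive the chondrocyte program, Sox9 was 0.56 higher in LY294002 than in SB202190 (adjusted p = 0.0473) and Sox6 was 0.43 higher, while Sox5 differed by 0.10 and did not pass. Col2a1 differed by 0.07 (adjusted p = 0.73), at the top of the scale. Col9a1 and Col11a1 differed by 0.28 and 0.34 and did not pass. Leaving out single arrays left 13 to 19 cartilage members higher, and leaving out a replicate number in all groups left 3 to 20.

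Genes of hypertrophy and mineralization leaned the same way with fewer calls. Of 23 members tested, 4 were higher and none was lower (3.81% and 2.19% of all genes were), with a median of 0.41. With the replicate block 13 were higher. Against DMSO, 2 were higher and 2 lower with LY294002 (median 0.07), where 11.1% of all genes were called. With SB202190, 0 were higher and 1 lower (median -0.27), where 2.70% were called. Bone sialoprotein, Ibsp, measured 10.02, 9.67 and 9.61 with LY294002, 7.89, 8.31 and 8.84 with SB202190, and 10.35, 9.93 and 9.72 with DMSO. The SB202190 arrays lay below the others and differed by 1.42 ± 0.35 (adjusted p = 0.0264). That call was lost without LY294002 replicate 1 or 2 or without SB202190 replicate 1 or 2 (adjusted p = 0.105, 0.0655, 0.145 and 0.0906). The second Ibsp probe set, the brighter one, differed by 1.24 (adjusted p = 0.0327) and lost its call without those same arrays (0.121, 0.113, 0.164 and 0.11).

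F13a1, the A subunit of transglutaminase factor XIII, which rises as chondrocytes mature, measured 8.22, 7.65 and 7.64 with LY294002, 6.61, 6.73 and 6.78 with SB202190, and 8.57, 8.30 and 8.44 with DMSO. LY294002 lay between the others, 1.13 ± 0.16 above SB202190 (adjusted p = 0.000697) and lower than DMSO (-0.60, adjusted p = 0.0329), and SB202190 was 3.32-fold lower than DMSO (-1.73, adjusted p = 2.85e-05). The call of LY294002 against DMSO was lost without LY294002 replicate 2 or 3 (adjusted p = 0.12 and 0.096), without DMSO replicate 1, 2 or 3 (0.0574, 0.0585 and 0.0961), in a fit of these 6 arrays alone (0.0947) and after median centring (0.0587). Alkaline phosphatase, Alpl, was 0.67 higher in LY294002 than in SB202190 (adjusted p = 0.013) and the homeobox gene Dlx5 0.49 higher (adjusted p = 0.0152). Alpl lost its call without LY294002 replicate 3, SB202190 replicate 1 or SB202190 replicate 2 (0.0623, 0.0835 and 0.0654), and Dlx5 without LY294002 replicate 1, SB202190 replicate 1 or SB202190 replicate 2 (0.0793, 0.0529 and 0.0761). Without SB202190 replicate 1 or 2 only 1 hypertrophy gene was called, and without LY294002 replicate 1 there were 2. Leaving out a replicate number in all groups left 1 to 8 hypertrophy genes higher.

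Type X collagen, Col10a1, the standard marker of hypertrophy, measured 10.13, 10.36 and 11.30 with LY294002, 9.25, 9.60 and 10.58 with SB202190, and 9.63, 10.13 and 11.36 with DMSO. Replicate 3 was the highest array in each group, and the difference of 0.79 did not pass (adjusted p = 0.449), but it did with the replicate block (adjusted p = 0.000136). Dmp1, a mineralization protein, measured 8.38, 8.32 and 7.21 with LY294002 and 6.35, 5.98 and 6.37 with SB202190. Its difference of 1.73 ± 0.56 on the brightest probe set did not pass (adjusted p = 0.0999). Ihh, which sets the pace of hypertrophy, differed by 0.52 (adjusted p = 0.291, and 0.0196 with the block). Phlda2, an imprinted gene with a pleckstrin homology domain, measured 7.37, 7.32 and 7.45 with LY294002, 7.81, 7.83 and 8.07 with SB202190, and 8.36, 8.34 and 8.50 with DMSO. It was lower in LY294002 than in SB202190 (-0.52 ± 0.10, adjusted p = 0.0064), and both lay below DMSO without overlap. The call between the inhibitors was lost without replicate number 1, 2 or 3 (adjusted p = 0.0567, 0.107 and 0.0589).

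**Figure D2:**
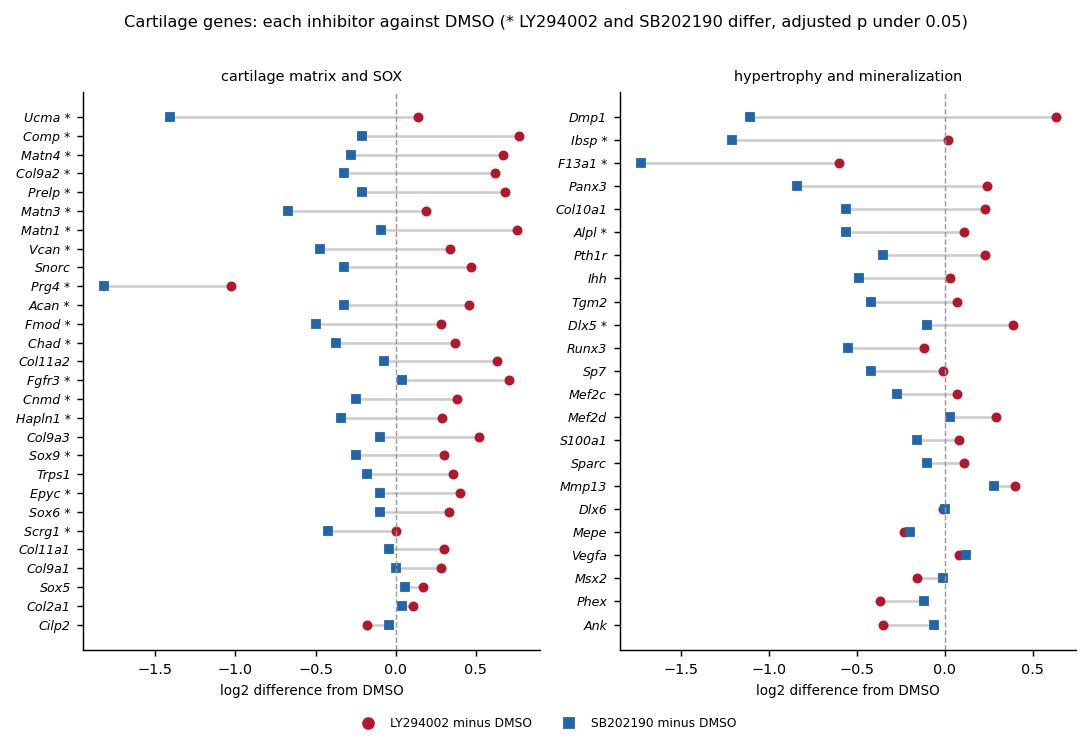
Log2 difference from DMSO for LY294002 (red circles) and SB202190 (blue squares) for each tested gene of the cartilage list (28 genes) and the hypertrophy list (23 genes). The grey line joins the values of a gene, both taken against the same 3 DMSO arrays, and an asterisk marks an adjusted p under 0.05 for LY294002 against SB202190. In the cartilage list 27 of 28 red circles lie right of their blue squares, and F13a1 and Prg4 lie left of 0 under both compounds.

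Growth factor pathways were counted by role. In the TGF-beta and BMP list 12 of 41 members were higher and none was lower in LY294002 than in SB202190, with a median of 0.25. Of all genes 3.81% were higher and 2.19% lower. With the replicate block 16 members were higher and 1 was lower. Among ligands, Bmp4 measured 10.86, 10.70 and 10.58 with LY294002 and 9.68, 9.71 and 9.93 with SB202190, against 10.10, 10.04 and 10.14 with DMSO (0.94 ± 0.09, adjusted p = 1.68e-05). The groups were separate, with LY294002 above DMSO by 0.62 (adjusted p = 0.00066). Inhbb, an activin subunit, was 1.01 higher (adjusted p = 0.00248) and Tgfb3 0.41 higher.

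The secreted antagonists of this family were higher as well. Noggin, Nog, differed by 0.89 ± 0.16 (adjusted p = 0.0028) and follistatin, Fst, by 0.88 ± 0.12 (adjusted p = 0.000341). Fst measured 10.89 to 11.29 with LY294002, 10.11 to 10.22 with SB202190, and 10.99 to 11.06 with DMSO. Only its SB202190 arrays left the range of the others. Gremlin, Grem1, differed by 0.44. Of the receptors, Tgfbr1 and Tgfbr2 were 0.50 and 0.38 higher, and of the intracellular members Id4, Skil and Smad3 were 0.79, 0.68 and 0.38 higher. Id1 and Id3, the usual readouts of BMP signaling, differed by 0.22 and -0.08 and did not pass. Without single arrays 9 to 12 members were higher, and without a replicate number in all groups 3 to 9 were.

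In the Wnt list 14 of 43 members were higher and none was lower (3.81% and 2.19% of all genes were), with a median of 0.24. With the replicate block 18 members were higher. Besides Wif1, Sfrp1, a secreted frizzled-related antagonist, measured 11.13, 10.89 and 10.84 with LY294002, 10.19, 10.21 and 10.02 with SB202190, and 10.17, 10.07 and 9.97 with DMSO. Only the LY294002 arrays stood apart (0.81 ± 0.10, adjusted p = 0.000195). Sfrp2, Dkk3 and Frzb were 0.69, 0.47 and 0.43 higher. Of Wnt response genes, Ccn4, a matricellular protein also called Wisp1, was 0.91 ± 0.15 higher (adjusted p = 0.00233), Nkd1 0.73 higher (adjusted p = 0.00237) and Lef1 0.58 higher, while Axin2 differed by 0.41 and passed only with the replicate block (adjusted p = 0.054, and 0.00102 with the block). Of the receptors, Fzd1, Fzd9, Fzd5, Fzd8 and Lrp6 were 0.70, 0.56, 0.52, 0.29 and 0.35 higher. The Wnt acyltransferase Porcn completed the 14, at 0.40. The count was 8 without LY294002 replicate 1, SB202190 replicate 1 or SB202190 replicate 2, and 4 to 7 without a replicate number in all groups.

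A list of IGF, FGF and other growth plate signals also holds Npr3, a natriuretic peptide receptor, and Ednrb. Of its 26 genes tested, 7 were higher and 3 lower (3.81% and 2.19% of all genes were). The binding protein Igfbp2 measured 9.05, 9.33 and 9.07 with LY294002 and 7.88, 8.13 and 8.18 with SB202190, against 8.66, 8.96 and 8.68 with DMSO (1.09 ± 0.16, adjusted p = 0.00097). Igfbp6, which prefers IGF2, measured 8.95, 8.89 and 8.57 with LY294002 and 9.81, 9.78 and 9.71 with SB202190, against 9.80, 9.54 and 9.41 with DMSO (-0.96 ± 0.11, adjusted p = 0.000128). Igf1 itself measured 11.45, 10.75 and 10.64 with LY294002 and 10.27, 10.18 and 9.73 with SB202190 (0.89 ± 0.23, adjusted p = 0.035). It was not past the threshold without LY294002 replicate 1 or 2 or any SB202190 array (adjusted p = 0.178, 0.055, 0.0602, 0.0775 and 0.157). The ligand Fgf7 was 0.56 higher, the receptors Fgfr2 and Fgfrl1 were 0.36 and 0.60 higher, and Npr3 and Igfbp7 were 0.66 and 0.63 higher. The other lower members were Ednrb and Fgfbp1 (-0.69). The higher count was 3 without LY294002 replicate 1 or SB202190 replicate 2 and 4 without LY294002 replicate 2, SB202190 replicate 1 or SB202190 replicate 3. Without a replicate number in all groups it was 1 to 4.

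Of 26 actin, SRF target and smooth muscle genes, 9 were higher and 1 was lower in LY294002 (3.81% and 2.19% of all genes were). The median was 0.29, and 13 members were higher with the replicate block. Myl9, a myosin light chain of smooth muscle and of stress fibers, measured 11.65, 11.55 and 11.44 with LY294002, 10.49, 10.64 and 10.65 with SB202190, and 10.95, 10.94 and 10.91 with DMSO. The groups were separate and LY294002 exceeded SB202190 by 0.95 ± 0.08 (adjusted p = 9.19e-06). Actg2, smooth muscle gamma actin, and Cnn1, calponin 1, were 0.94 ± 0.12 and 0.86 ± 0.09 higher (adjusted p = 0.000276 and 3.84e-05). Ankrd1 was the lower member (-0.74, adjusted p = 0.0159), and its call was lost without LY294002 replicate 2 or 3 or without SB202190 replicate 1 or 2 (adjusted p = 0.0563, 0.0715, 0.102 and 0.0522). The higher count was 3 without LY294002 replicate 1, SB202190 replicate 1 or SB202190 replicate 2, and 5 without LY294002 replicate 2. Without a replicate number in all groups it was 3 to 4.

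**Figure D3:**
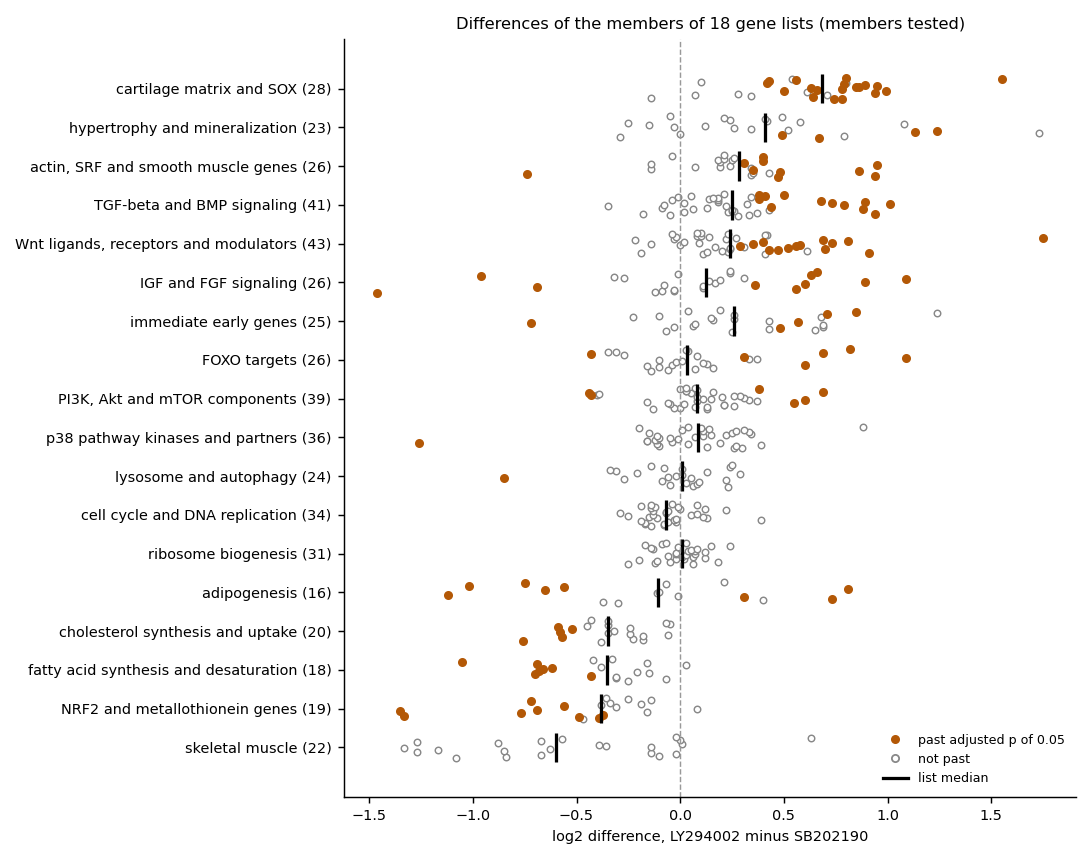
Log2 difference, LY294002 minus SB202190, of every tested member of 18 gene lists, with the number tested in brackets. Filled points passed an adjusted p of 0.05, open points did not, and vertical bars are list medians. The cartilage median is 0.69 and the medians of the cholesterol, fatty acid and NRF2 lists are -0.35, -0.36 and -0.38, while the medians of the PI3K and p38 component lists are both 0.08.

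Antioxidant genes under NRF2 and the metallothioneins respond to oxidants and metals. Of 19 members of this list 9 were lower in LY294002 than in SB202190 and none was higher (2.19% and 3.81% of all genes were). The other 10 did not pass, the median was -0.38 and 18 differences were negative. With the replicate block 13 members were lower. Against DMSO, LY294002 had 1 higher and 1 lower (median 0.10), where 11.1% of all genes were called, and SB202190 had 10 higher and none lower (median 0.49), where 2.70% were called. Mt1, metallothionein 1, measured 11.15, 10.91 and 11.26 with LY294002, 12.46, 12.28 and 12.64 with SB202190, and 11.32, 11.37 and 11.35 with DMSO (LY294002 minus SB202190 -1.35 ± 0.13, adjusted p = 2.16e-05). Mt2 measured 11.70, 11.59 and 11.56 with LY294002, 12.45, 12.16 and 12.32 with SB202190, and 11.46, 11.47 and 11.39 with DMSO (-0.69 ± 0.10, adjusted p = 0.00048). In both, the SB202190 arrays lay above all arrays of the other 2 groups.

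Srxn1, sulfiredoxin, which repairs oxidized peroxiredoxins, measured 9.62, 9.45 and 9.52 with LY294002, 10.21, 10.21 and 10.32 with SB202190, and 9.43, 9.29 and 9.53 with DMSO (-0.72 ± 0.10, adjusted p = 0.000475). Gsta4, a glutathione transferase for lipid aldehydes, measured 9.76, 9.49 and 9.26 with LY294002, 10.82, 10.87 and 10.81 with SB202190, and 10.40, 10.22 and 9.95 with DMSO (-1.33 ± 0.13, adjusted p = 1.84e-05). Here LY294002 lay below the vehicle too. Hmox1, heme oxygenase 1, differed by -0.77 (adjusted p = 0.0295) and was not past the threshold without LY294002 replicate 2 or 3 or any SB202190 array (adjusted p = 0.0863, 0.0947, 0.0835, 0.0762 and 0.111). Gstm1, Gclm, Gsr and Osgin1 were also lower (-0.37, -0.39, -0.49 and -0.56). Nqo1, a standard NRF2 target, differed by -0.31 (adjusted p = 0.403), and Nfe2l2, which encodes NRF2 itself, by 0.08. Without single arrays 5 to 8 members were lower, and 5 without SB202190 replicate 1. Leaving out a replicate number in all groups left 4 to 5 lower.

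The Srxn1 promoter is shown because this gene separated the inhibitors with little spread and holds a pair of AP-1 type motifs, whose letters NRF2 elements share in part. The window lies at chr2:152105274-152105573 on the plus strand, from RefSeq on GRCm38.p6, and capitals mark TGANTCA, with first bases at -102 and -45 from the transcription start.
Srxn1 promoter: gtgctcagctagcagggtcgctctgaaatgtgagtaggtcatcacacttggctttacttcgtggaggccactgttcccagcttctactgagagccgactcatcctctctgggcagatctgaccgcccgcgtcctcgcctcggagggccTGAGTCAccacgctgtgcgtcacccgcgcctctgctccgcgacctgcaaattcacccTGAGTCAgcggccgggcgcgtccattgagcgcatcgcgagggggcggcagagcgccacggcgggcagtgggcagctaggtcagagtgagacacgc
TGANTCA on either strand occurred in 4 of 20 windows of this list and in 7.81% of all windows.

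Of 18 fatty acid enzymes and regulators 7 were lower and none was higher in LY294002 than in SB202190 (2.19% and 3.81% of all genes were). The median was -0.36, and with the replicate block 11 were lower. Scd1, the delta-9 desaturase, measured 11.03, 10.74 and 10.40 with LY294002, 11.89, 11.91 and 11.54 with SB202190, and 11.74, 11.66 and 11.22 with DMSO (-1.05 ± 0.15, adjusted p = 0.00066). LY294002 was below both other groups and also differed from DMSO (-0.82, adjusted p = 0.00375, and 0.0586 in a fit of these 6 arrays alone). Lpin1, a phosphatidate phosphatase, measured 8.47, 8.51 and 8.49 with LY294002, 9.11, 9.24 and 9.20 with SB202190, and 8.73, 8.72 and 8.55 with DMSO (-0.69 ± 0.09, adjusted p = 0.000242).

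Elovl6, which elongates palmitate, differed by -0.68 (adjusted p = 0.0035), Fads1 and Fads2, the delta-5 and delta-6 desaturases, by -0.66 and -0.62, and Acsl5 by -0.43. Acss2, acetyl-CoA synthetase, differed by -0.70 (adjusted p = 0.0368) and was not past the threshold without LY294002 replicate 2 or 3 or SB202190 replicate 1 or 2 (adjusted p = 0.0901, 0.128, 0.151 and 0.148). Fasn and Srebf1 differed by -0.38 and -0.33 and did not pass without the block (adjusted p = 0.0749 and 0.187, and 0.0239 and 0.0422 with it). The count was 4 without LY294002 replicate 2 or 3 or SB202190 replicate 1 or 2, and 14 after quantile normalization. Without a replicate number in all groups it was 1 to 7.

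All 20 tested genes of cholesterol synthesis and uptake had negative differences, with a median of -0.35. Past the threshold were 5 of them, where 2.19% of all genes were lower, and 10 with the replicate block. Dhcr7, which makes cholesterol in its last step, measured 9.69, 9.54 and 9.44 with LY294002, 10.33, 10.23 and 10.39 with SB202190, and 10.03, 9.85 and 9.63 with DMSO (-0.76 ± 0.10, adjusted p = 0.000355). Nsdhl and Lss, enzymes of the sterol ring steps, differed by -0.59 and -0.58 (adjusted p = 0.000996 and 0.00618), and Mvd by -0.52. Fdps, farnesyl diphosphate synthase, differed by -0.57 (adjusted p = 0.0175) and lost its call without LY294002 replicate 2 or 3 or SB202190 replicate 2 or 3 (0.0814, 0.0719, 0.0712 and 0.0705). Hmgcs1 and Sqle differed by -0.18 and -0.05. The count was 3 without LY294002 replicate 2 or 3 or SB202190 replicate 2 or 3, and 13 after quantile normalization. Without a replicate number in all groups it was 1 to 7. Against DMSO, LY294002 had 4 members lower (2.21% of all genes were) and SB202190 had 1 higher, Dhcr7 (1.70% of all genes were). The Dhcr7 call was lost without SB202190 replicate 1, 2 or 3 (adjusted p = 0.0936, 0.0527 and 0.0911). It was also lost without DMSO replicate 2 or 3 (0.0719 and 0.114) and in a fit of these 6 arrays alone (0.0814). In a fit of the LY294002 and DMSO arrays alone, Nsdhl, Lss and Fdps lost their calls (0.068, 0.0673 and 0.122).

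**Figure D4:**
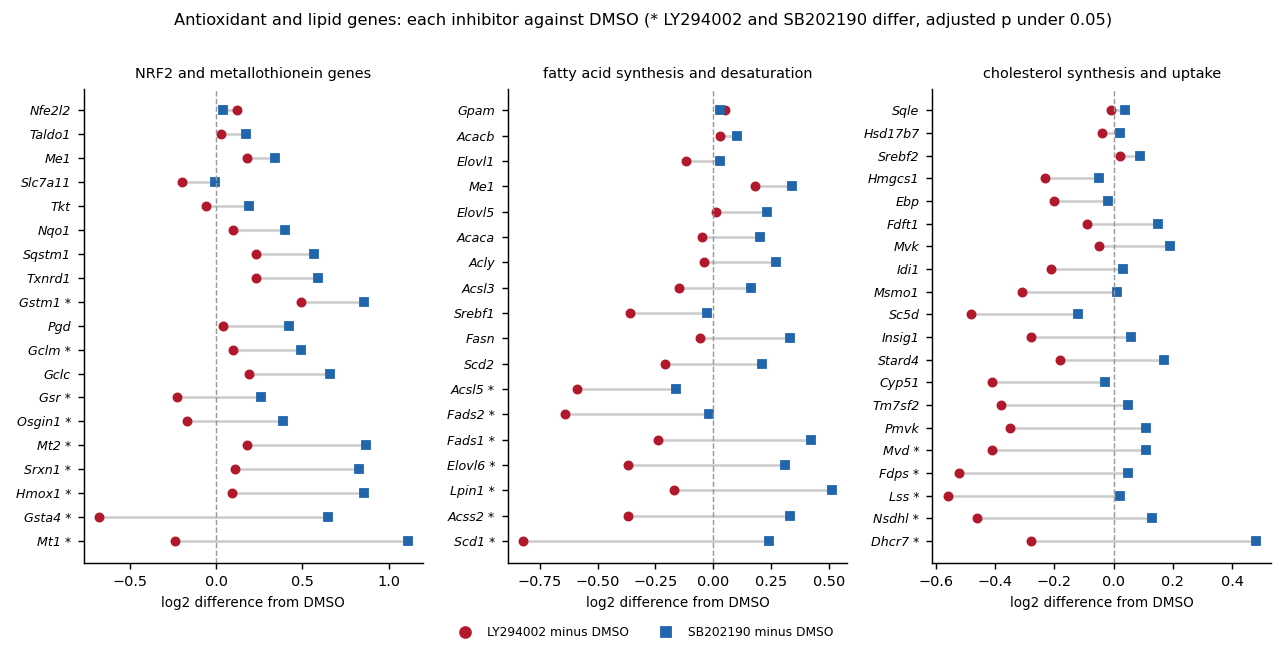
Log2 difference from DMSO for LY294002 (red circles) and SB202190 (blue squares) for each tested gene of the NRF2 and metallothionein list (19), the fatty acid list (18) and the cholesterol list (20), against the same 3 DMSO arrays. An asterisk marks an adjusted p under 0.05 for LY294002 against SB202190. Blue squares lie right of red circles for 18, 17 and 20 genes, with Mt1 at 1.11 for SB202190 and Scd1 at -0.82 for LY294002 as the most distant points of the first 2 panels.

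Of 16 adipogenesis genes 3 were higher and 5 lower (3.81% and 2.19% of all genes were). Pparg, one of the lower ones, is the receptor that drives fat cell formation. Pparg measured 7.98, 7.77 and 7.53 with LY294002, 8.43, 8.54 and 8.56 with SB202190, and 8.0, 8.04 and 7.91 with DMSO (-0.75 ± 0.10, adjusted p = 0.000256). The fatty acid carrier Fabp4 measured 9.04, 9.50 and 8.94 with LY294002, 10.24, 10.27 and 10.33 with SB202190, and 9.89, 10.06 and 9.94 with DMSO (-1.12 ± 0.18, adjusted p = 0.00141). Plin4 and Plin2, which coat lipid droplets, differed by -1.02 and -0.56, and lipoprotein lipase, Lpl, by -0.65 (adjusted p = 0.00554). The higher ones were the imprinted proteolipid Nnat (0.81 ± 0.14, adjusted p = 0.00212), the early factor Cebpd (0.73) and the inhibitor Dlk1 (0.31). Single arrays moved the higher count to 1 without LY294002 replicate 1, LY294002 replicate 2 or SB202190 replicate 2, and the lower count stayed 5.

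Immediate early genes, the first transcripts to answer a signal, had 4 of 25 members higher and 1 lower (3.81% and 2.19% of all genes were). The median was 0.26, and 8 members were higher with the replicate block. Nr4a2, an orphan nuclear receptor, measured 8.73, 8.61 and 8.56 with LY294002 and 7.84, 7.85 and 7.68 with SB202190, against 7.81, 8.0 and 7.88 with DMSO (0.85 ± 0.10, adjusted p = 0.000195). Myc was 0.71 ± 0.12 higher (adjusted p = 0.0023) and Fosl1, a FOS family member, was lower (-0.72 ± 0.11, adjusted p = 0.000812). Fosl2 was 0.57 higher (adjusted p = 0.0159), but not past the threshold without LY294002 replicate 1, SB202190 replicate 2 or SB202190 replicate 3 (0.0832, 0.055 and 0.0777). The remaining higher member was Ccn2, a matricellular protein, at 0.48.

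Nr4a1 measured 11.11, 11.58 and 9.55 with LY294002, 9.80, 9.98 and 8.72 with SB202190, and 8.85, 9.49 and 9.31 with DMSO. The LY294002 and SB202190 arrays overlapped, replicate 3 being the lowest in each, and the difference of 1.24 ± 0.49 did not pass (adjusted p = 0.197). It passed with the replicate block (adjusted p = 0.0122) and without LY294002 replicate 3 (0.0279). Fos, with 12.37, 12.34 and 9.41 for LY294002 and 11.12, 11.47 and 9.47 for SB202190, had the same low replicate 3, and its difference of 0.69 did not pass. The count of higher members was 7 without LY294002 replicate 3 and 2 without LY294002 replicate 1 or SB202190 replicate 2. Without a replicate number in all groups it was 1 to 8.

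Matrix proteases and their inhibitors had 5 of 28 members higher and 1 lower (3.81% and 2.19% of all genes were), and 8 higher with the replicate block. Adamts5, an aggrecanase, measured 10.68, 10.38 and 10.28 with LY294002 and 9.96, 9.86 and 9.73 with SB202190, against 9.97, 9.43 and 9.70 with DMSO (0.60 ± 0.15, adjusted p = 0.0326). The arrays did not overlap, but the call was lost without any single array other than LY294002 replicate 3 (adjusted p = 0.0662 to 0.155). It was also lost when all Adamts5 probe sets were averaged (0.103). Timp3, a protease inhibitor bound to matrix, was 0.58 ± 0.11 higher (adjusted p = 0.00557), and Adamts12, Adamts9 and Htra1 were 0.56, 0.48 and 0.41 higher. Plat, tissue plasminogen activator, was lower (-0.60 ± 0.09, adjusted p = 0.000977). Mmp13 differed by 0.12 and did not pass. The higher count was 3 without LY294002 replicate 1 or 2 or SB202190 replicate 1 or 2, and 1 to 3 without a replicate number in all groups.

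Of 34 inflammatory cytokine, chemokine and prostaglandin genes, 5 were higher and 3 lower (3.81% and 2.19% of all genes were). Cxcl14, Il6, Tnfsf11 and Hpgd among them are described above. The higher count was 3 without LY294002 replicate 1 or SB202190 replicate 2.

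Lysosomal and autophagy genes differed little between the inhibitors, with 1 of 24 members lower and a median of 0.01, while against DMSO 7 members were higher with LY294002 (8.85% of all genes were), and 6 were higher and 1 lower with SB202190 (1.70% and 1.01% of all genes were). Gla, the lysosomal alpha-galactosidase, was the lower one, at 8.03, 7.94 and 7.96 with LY294002, 8.71, 8.64 and 9.12 with SB202190, and 8.37, 8.20 and 8.42 with DMSO (-0.85 ± 0.15, adjusted p = 0.00242). The 3 groups did not overlap. Its promoter is shown because it holds a pair of CLEAR elements, the motif known to bind TFEB and its relatives at lysosomal genes. The window lies at chrX:134600956-134601255 on the minus strand, from RefSeq on GRCm38.p6, and capitals mark TCACGTGA, with first bases at -228 and -195.
Gla promoter: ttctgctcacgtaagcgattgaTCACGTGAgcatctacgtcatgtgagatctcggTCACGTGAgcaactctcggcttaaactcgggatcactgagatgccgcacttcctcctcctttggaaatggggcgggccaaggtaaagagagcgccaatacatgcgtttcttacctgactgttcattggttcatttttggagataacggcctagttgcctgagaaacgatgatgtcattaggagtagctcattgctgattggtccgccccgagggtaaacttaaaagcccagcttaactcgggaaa
TCACGTGA occurred in 5 of 25 windows of the lysosome list and in 0.974% of all windows.

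In some groups of genes few or no members were called, where 3.81% of all genes were higher and 2.19% lower. Of 34 cell cycle and DNA replication genes, 31 ribosome biogenesis genes, 16 ERK feedback and ETS genes and 20 interferon response genes, none passed in LY294002 against SB202190, with medians of -0.07, 0.01, 0.08 and -0.13. Differences were negative for 19 of 20 interferon and 26 of 34 cell cycle genes, and for 15 of 31 ribosome biogenesis and 6 of 16 ERK feedback genes. With the replicate block 5 interferon genes were lower, and 1 ERK feedback gene was higher and 2 were lower. Glycolysis and hypoxia genes had 1 of 24 higher, the collagen hydroxylase P4ha2 (0.60 ± 0.11, adjusted p = 0.00292), and 2 lower, and with the block 3 higher and 7 lower. None was lower without LY294002 replicate 2 or 3 or SB202190 replicate 2 or 3, 1 was lower without SB202190 replicate 1, and 3 were lower without LY294002 replicate 1. The cyclin Ccne2, with the largest difference of the cell cycle list, differed by 0.39 (adjusted p = 0.263). Of 12 histone genes 2 were higher, H2bc18 by 0.64 and H2az2 by 0.51 (adjusted p = 0.00348 and 0.00573). Of 29 genes of the amino acid response and tRNA charging 1 was higher, of 14 D cyclins and CDK inhibitors 1 was higher and 1 lower, and of 21 p53 targets 2 were lower. The amino acid list had none higher without SB202190 replicate 1 or 2, and none higher and 4 lower after quantile normalization. The D cyclin list had none higher without LY294002 replicate 1 or 2 or SB202190 replicate 1 or 2, and none lower without SB202190 replicate 2. Of the p53 targets 1 was lower without LY294002 replicate 3 or SB202190 replicate 2 or 3, 1 was higher without LY294002 replicate 3, and 5 were lower after quantile normalization.

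Markers of other cell types moved with the comparison in part, where 3.81% of all genes were higher and 2.19% lower. Of 22 skeletal muscle genes none was called, but 20 had negative differences, with a median of -0.60, and with the replicate block 12 were lower, as were 6 without LY294002 replicate 1. The fast myosin light chain Mylpf measured 8.64, 7.54 and 7.28 with LY294002, 9.59, 9.12 and 8.73 with SB202190, and 8.94, 8.17 and 7.53 with DMSO, highest on replicate 1 in each group (-1.33 ± 0.38, adjusted p = 0.0556, and 6.84e-05 with the block). The summed linear signal of the muscle markers was 4085 to 7525 with LY294002, 6513 to 10848 with SB202190 and 4466 to 9484 with DMSO, so these ranges overlapped. Their part in the differences above, such as that of Car3, was not tested.

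Epithelial markers had 2 of 11 members lower, Krt18 and Perp (-0.46, adjusted p = 0.00097), and 5 lower with the block, and their summed signal was 3047 to 3311 with LY294002 and 3737 to 3907 with SB202190, against 3967 to 4262 with DMSO. Of 19 fibroblast and perichondrium genes 4 were higher and 1 lower, with sums of 90939 to 103896 with LY294002 and 80510 to 84594 with SB202190, against 82356 to 97388 with DMSO. Col5a1, a fibrillar collagen, was 0.62 higher (adjusted p = 0.000228) and Twist2 was lower (-0.54, adjusted p = 0.00292). Of the fibroblast genes, 1 was higher without LY294002 replicate 1, SB202190 replicate 1 or SB202190 replicate 2, and 2 were higher without LY294002 replicate 2 or SB202190 replicate 3.

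Of 14 macrophage and leukocyte genes, Cd68 was lower (-0.65, adjusted p = 0.0014) and Lyz2 higher (0.42, adjusted p = 0.0404). Of 9 osteoclast genes, Acp5, tartrate-resistant acid phosphatase, was lower (-0.72, adjusted p = 0.000268) and Nfatc1 higher (0.27, adjusted p = 0.0327). Lyz2 lost its call without LY294002 replicate 1, 2 or 3 or SB202190 replicate 1 or 2 (0.0994, 0.0767, 0.117, 0.204 and 0.124), and Nfatc1 without any 1 of the 6 arrays (0.0573 to 0.132). Quantile normalization also cost Lyz2 and Nfatc1 the call (0.149 and 0.215), as did averaging all probe sets for Nfatc1 (0.0763). The summed signal of the macrophage genes was 2955 to 3530 with LY294002 and 3283 to 3611 with SB202190, against 3380 to 4455 with DMSO. That of the osteoclast genes was 2652 to 2779 with LY294002 and 2849 to 3045 with SB202190, against 3061 to 3108 with DMSO. None of the 8 endothelial, 5 erythroid and 6 neuronal and Schwann cell genes tested was called.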

How the data were processed

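The values used are log2 signals as deposited by the authors, a single one for every probe set on each array. The methods of the study name GC-RMA for them and RMA for part of the work, and the values do not settle which was used. Depth has no meaning for arrays, whose number sets the precision. The table held 45101 probe sets, and without 64 controls 45037 stayed, of which 34945 carried 1 gene symbol, 932 several and 9160 none. A probe set was tested where its mean reached log2 of 50 (5.64) in either group. The model, run with limma 3.58.1 under R 4.3.3, had a mean for each treatment and used all 15 arrays (10 residual degrees of freedom). Its moderated two-sided p-values were adjusted after Benjamini-Hochberg across the probe sets tested. An exact permutation test of 3 against 3 arrays cannot go below 0.1 and was not used.

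A gene was represented in the 35 lists by the probe set that was brightest on average across the 15 arrays, and 808 of 868 list entries were matched. The members, lists and tests were chosen with earlier results of these data known. Named genes are the 12 most changed in each direction among genes past the threshold whose arrays did not overlap, at most 4 members called in a list (or its most changed one), the kinases targeted, and F13a1, Phlda2, Nr4a1 and Adamts5. Other list members were named after their values were seen, and the fits without single arrays give those members only as part of their list's count. Errors are standard errors of the fit.

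The replicate numbers pair the arrays of LY294002 and SB202190, since the deviations of same-numbered arrays correlated at 0.22, 0.244 and 0.258. A fit with the number as a block was the paired alternative. Calls and adjusted p-values given without mention of the block come from fits without this pairing. Same-numbered arrays correlated at 0.769, 0.405 and 0.627 for LY294002 and DMSO, and at 0.237, 0.302 and 0.325 for SB202190 and DMSO. Other alternatives changed the filter, the scaling, the arrays in the fit and the probe sets used for a gene. The series names 3 biological replicates per treatment.

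RefSeq promoter windows (GRCm38.p6) were found for 92 of the 116 named genes. Motifs were searched on both strands as exact letters, N being any base.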

Additional observations from a re-analysis of the deposited data

Results flagged for a closer look

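For 7 of the 116 genes named by the rule, the only ones searched, both inhibitors were past the threshold against DMSO, in opposite directions. LY294002 and SB202190 also differed in the direct comparison. In these genes all 3 LY294002 arrays lay on one side of all 3 DMSO arrays and all 3 SB202190 arrays on the other. Further named genes, such as Angptl7, Bmp4 and Gla, were as separate by array and are not counted among the 7. The values are LY294002 minus SB202190, on the log2 scale. Cxcl14 differed by 2.61, and by 1.62 on its second probe set, Ppp1r3c by 1.56 and Myl9 by 0.95, with LY294002 above and SB202190 below DMSO. Gpnmb differed by -2.74, Gsta4 by -1.33, Uap1l1 by -1.19 and Acp5 by -0.72, with LY294002 below and SB202190 above DMSO. Uap1l1, related to an enzyme of amino sugar synthesis, measured 9.17, 9.0 and 9.03 with LY294002 and 10.11, 10.25 and 10.40 with SB202190, against 9.60, 9.52 and 9.52 with DMSO. The calls against DMSO were part of the choice of these genes and are no separate result. Many genes were named for a large difference between the inhibitors. The share of all genes with such opposite calls was not counted, so whether 7 is many cannot be said. For Ppp1r3c and Acp5 the call of LY294002 against DMSO was lost without LY294002 replicate 1 (adjusted p = 0.199 and 0.104), LY294002 replicate 3 (0.0671 and 0.0876), DMSO replicate 2 (0.135 and 0.102) or DMSO replicate 3 (0.172 and 0.142). The call of SB202190 against DMSO was lost without SB202190 replicate 1 for Ppp1r3c, Gsta4, Myl9 and Acp5 (0.136, 0.059, 0.25 and 0.09) and without SB202190 replicate 2 (0.082, 0.0653, 0.119 and 0.0526). Without SB202190 replicate 3 it was lost for Myl9 and Acp5 (0.0889 and 0.183). Without DMSO replicate 1 or 2 it was lost for Ppp1r3c (0.06 and 0.0655), Myl9 (0.0829 and 0.145) and Acp5 (0.097 and 0.117), and without DMSO replicate 3 for Gsta4, Myl9 and Acp5 (0.0822, 0.126 and 0.0671). In fits of 6 arrays alone the call against DMSO was lost under LY294002 for Ppp1r3c, Gsta4 and Acp5 (0.0947, 0.0606 and 0.112), and under SB202190 for Myl9 and Acp5 (0.11 and 0.154).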

How the results depend on the processing

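Of the 97 named probe sets called between LY294002 and SB202190, none changed direction under the alternatives run, and 39 kept the call under all of them. The 1051 higher and 528 lower probe sets became 2233 and 1079 with the replicate block, and 1010 were lower after quantile normalization. Leaving out 1 array or 1 replicate number left 155 to 938 higher and 72 to 472 lower. LY294002 against DMSO, with 2362 higher and 616 lower, gave 4609 and 1761 with the block, 554 and 142 in a fit of these 6 arrays alone, 1410 lower after quantile normalization and 377 lower after median centring, and 124 to 4089 higher and 54 to 1121 lower without 1 array or number (874 higher without LY294002 replicate 1, 333 lower without LY294002 replicate 2, and 4089, 1026 and 1050 higher and 1121, 385 and 315 lower without DMSO replicate 1, 2 or 3). SB202190 against DMSO gave 1237 and 668 with the block, 204 higher in its 6 arrays alone, and 777 and 503 after quantile normalization, and 18 to 650 higher and 32 to 196 lower without 1 array or number (161, 157 and 201 higher without SB202190 replicate 1, 2 or 3, 650, 155 and 170 without DMSO replicate 1, 2 or 3, and 102, 110, 156 and 143 lower without SB202190 replicate 1 or 2 or DMSO replicate 2 or 3). Of the calls, the share higher was 66.6% for LY294002 against SB202190, 52.9% after quantile normalization and 71.6% after median centring. For LY294002 against DMSO it was 79.3%, 62.1% and 89.2% in the same order, and for SB202190 against DMSO 63.5%, 60.7% and 71.8%. The cause of these shifts was not tested. Of the genes named by rule, the block changed the call of 5, Pik3ca, Rps6ka5, Nr4a1, Mylpf and Gbp3 (adjusted p = 0.0281), each to called. The dose of SB202190 and the duration of treatment remain unsettled, and 3 arrays per treatment limit what small differences can be seen.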
